A study of Chlorocebus sabaeus with 10 samples.

Results

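The immediate early genes FOS, FOSB, JUN, JUNB, EGR1, IER2, IER3, DUSP1, DUSP10 and ZFP36 were followed across liver biopsies of 10 vervet monkeys. A member was any row of the deposited table of estimated transcript counts whose gene symbol was one of these 10 names. Of the 28078 transcripts in the table, 9 carried a listed symbol, with 1 transcript per gene. FOSB is not analysed here. Of the 9, 8 passed the filter on low counts that left 7948 transcripts for testing, and IER2 did not.

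Immediate early genes are transcribed within minutes of a stimulus, because the factors that switch them on, such as SRF and CREB, are already present and need only be phosphorylated. Several of them encode transcription factors, and others encode the phosphatases and RNA-binding proteins that shut the response down again. Their transcripts are short-lived. In liver they are known to rise after partial hepatectomy, hormone surges and tissue injury.

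The study compared livers on a high fructose (HFr) diet and on chow by their transcripts, microRNAs, proteins and metabolites. Only the transcript counts are used here. All animals were female vervet monkeys (Chlorocebus sabaeus), an Old World primate, were described as age-matched, and had eaten chow before the study. Then 5 animals were given the HFr diet (HFr1 to HFr5) and 5 stayed on chow (Chow1 to Chow5), in the labels' numbering. Each animal gave 1 biopsy of whole liver tissue, flash frozen, and 1 library of polyadenylated RNA. In such bulk tissue, fewer cells of a type and less RNA per cell cannot be told apart. The animals' libraries held 2977282 to 4992505 estimated counts, of which 864571 to 2657103 fell on nuclear transcripts. All 10 hepatocyte markers looked up, among them ALB, APOA1 and TTR, were detected in the tested set.

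The spread between animals of the same diet was the main feature of these genes. Values are normalized counts (CPM), that is, estimated counts scaled to each animal's library size after TMM, a scaling to the bulk of shared transcripts, and they compare animals within a gene, not genes with each other. The spread of a gene is the SD between animals of the same diet on the scale log2(CPM + 1), pooled over the diets. Its median was 1.20 over the 8 tested members and 0.363 over all 7948 tested transcripts. Between the diets, 7 of the 8 were lower on HFr, where 50.2% of all tested transcripts were. Only DUSP10 had an unadjusted p under 0.05 in edgeR's quasi-likelihood test, 1 of 8 members against 4.29% of all tested transcripts (2.06% higher and 2.23% lower on HFr). No member passed after Benjamini-Hochberg adjustment, and neither did any of the 7948 transcripts (smallest adjusted p = 0.872, edgeR). DESeq2 gave 2 transcripts an adjusted p under 0.05, neither of them a member. The members and the gene lists below were chosen with earlier results of these data known. Members also moved together over the animals, so their counts beside the shares over all tested transcripts are a description.

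**Figure D1:**
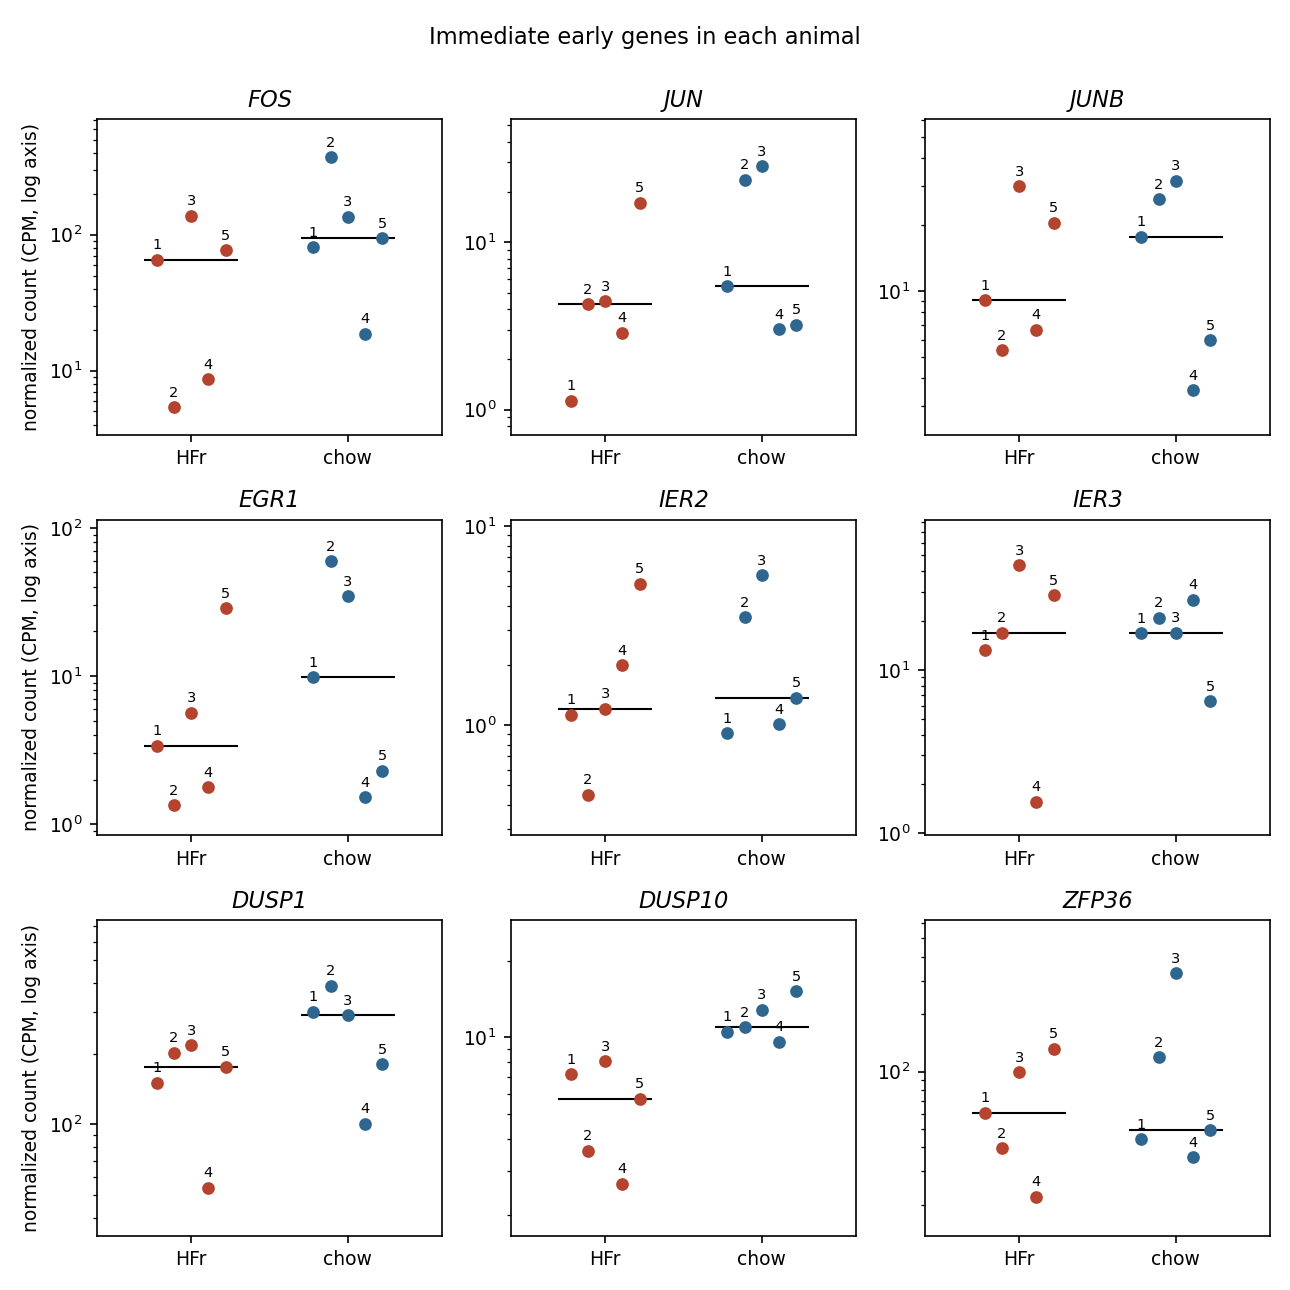
Normalized counts (CPM, log axis, a scale of its own for each gene) of the 9 immediate early genes in each animal. Points are animals, numbered within their diet, red for HFr and blue for chow, and the bar is the median of the diet. The diets do not overlap for DUSP10 and overlap for the other 8 genes.

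FOS and the JUN proteins dimerize to form AP-1, a transcription factor that binds growth and stress response genes. FOS (chromosome 24, 52497521 to 52501515, plus strand, ChlSab1.1) was at 65.6, 5.38, 138, 8.66 and 76.8 normalized counts in HFr1 to HFr5. Among the chow animals, Chow1 to Chow5, the values were 80.9, 371, 136, 18.7 and 94.2. HFr2 and HFr4 were the lowest animals and Chow2 the highest, with 24 estimated counts in HFr2 and 1695 in Chow2, a range of 69.0-fold in normalized counts. The mean was 58.8 ± 54.6 (SD, n = 5) on HFr and 140.2 ± 136 (SD, n = 5) on chow. Fitted over the table, the log2 fold change of FOS, HFr against chow, was -1.27 ± 0.78 (SE), with an unadjusted p of 0.126 and an adjusted p of 0.9996 (edgeR). Without HFr3 the log2 fold change was -1.86 (unadjusted p = 0.0411, edgeR), and without Chow2 it was -0.51. The 5 HFr animals lay below the chow mean, yet 3 of them lay within the range of the chow animals.

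The spread of FOS was among the widest in the table. Its SD within a diet was 1.77, and 0.151% of tested transcripts had a larger one. The biological coefficient of variation that edgeR estimated was 81.6% for FOS, where the trend at its level of expression was 29.8%.

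JUN (chromosome 20, 74205542 to 74206547, plus strand) was at 1.13, 4.26, 4.44, 2.89 and 17.2 normalized counts in HFr1 to HFr5. On chow, Chow1 to Chow5 were at 5.48, 23.7, 28.6, 3.03 and 3.22. Chow2, Chow3 and HFr5 stood above the other 7 animals, which all lay at 5.48 or below, so the high animals came from both diets. These 3 animals also had the most nuclear counts, 2022640 in Chow2, 2657103 in Chow3 and 2380744 in HFr5. Chow4 (864571) and Chow5 (932119) had the fewest, while HFr4, low for JUN, came next below the 3 with 1887776. The part of this depth in the values was not tested. JUN was sparse, with 3 estimated counts in HFr1 and 156 in Chow3. Its log2 fold change was -1.10 ± 0.68 (SE), unadjusted p = 0.125 (edgeR). Without HFr5, the high animal of its diet, the log2 fold change was -2.06 with an unadjusted p of 0.00903 (edgeR), and without Chow3 it was -0.59.

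JUNB (chromosome 6, 11479407 to 11480451, plus strand), a JUN relative that pairs with FOS and restrains JUN at some promoters, was at 9.04, 5.38, 29.9, 6.66 and 20.4 normalized counts in HFr1 to HFr5. The chow animals Chow1 to Chow5 were at 17.6, 26.1, 31.7, 3.54 and 5.97. The highest 4 animals were Chow3, HFr3, Chow2 and HFr5, again from both diets, and the lowest was Chow4 with 7 estimated counts. The range was 8.97-fold. The mean was 14.3 ± 10.5 (SD, n = 5) on HFr and 17.0 ± 12.3 (SD, n = 5) on chow, with a log2 fold change of -0.35 ± 0.54 (SE, unadjusted p = 0.524, edgeR). It was -0.02 without Chow3 and -0.77 without HFr3.

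EGR1 (chromosome 23, 41140065 to 41142375, plus strand), a zinc finger factor induced by growth factors through SRF, was at 3.39, 1.35, 5.65, 1.78 and 28.7 normalized counts in HFr1 to HFr5. The values in Chow1 to Chow5 were 9.83, 59.8, 34.7, 1.52 and 2.30. The same 3 animals stood highest as for JUN, namely Chow2, Chow3 and HFr5. The lowest animals of both diets were at 6 estimated counts (HFr2) and 3 (Chow4), against 273 in Chow2. EGR1 had the widest spread of the 8 tested members, an SD within a diet of 1.77 with 0.138% of tested transcripts above it, and a biological coefficient of variation of 95.4% against a trend of 26.4%. The log2 fold change was -1.41 ± 0.87 (SE, unadjusted p = 0.129, edgeR). It was -3.01 without HFr5, with an unadjusted p of 0.00528 (edgeR), and -0.63 without Chow2.

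IER2 and IER3 are early response genes outside the transcription factor families above. IER2 (chromosome 6, 11836706 to 11837378, plus strand), a small nuclear protein, had 2 to 26 estimated counts per HFr animal and 2 to 31 per chow animal. Its normalized counts were 1.13, 0.449, 1.21, 2.0 and 5.14 in HFr1 to HFr5, and 0.914, 3.5, 5.68, 1.01 and 1.38 in Chow1 to Chow5. The top 3 animals were again Chow3, HFr5 and Chow2. The unfiltered fit gave a log2 fold change of -0.36 ± 0.58 (SE, unadjusted p = 0.537, edgeR).

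IER3 (chromosome 17, 41712528 to 41714127, plus strand), a regulator of apoptosis, was at 13.2, 16.8, 43.6, 1.56 and 28.7 normalized counts in HFr1 to HFr5. Chow1 to Chow5 had 16.7, 20.8, 16.9, 26.8 and 6.43. Its pattern differed from that of EGR1 and JUN, with HFr3 highest and HFr4 lowest, so that the HFr animals spanned the whole range of 28.0-fold and enclosed every chow animal. It was the 1 tested member with a higher fitted value on HFr (log2 fold change 0.22 ± 0.54 SE, unadjusted p = 0.688, edgeR). The difference in mean log2(CPM + 1) had the other sign, -0.15.

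The remaining members switch signals off. DUSP1 (chromosome 23, 74929863 to 74934533, minus strand), the phosphatase that inactivates MAP kinases and is also induced by glucocorticoids, was at 150.3, 202, 218, 53.8 and 176 normalized counts in HFr1 to HFr5. On the chow diet, Chow1 to Chow5 had 302, 390.0, 291, 101 and 180.2. HFr4 was lowest and Chow2 highest, 7.25-fold apart. The 5 HFr animals were below both the mean and the median of the chow animals, but Chow4 and Chow5 lay within the HFr range. The mean was 159.9 ± 64.7 (SD, n = 5) on HFr, against 253 ± 113 (SD, n = 5) on chow. For DUSP1 the log2 fold change was -0.66 ± 0.38 (SE, unadjusted p = 0.0996, edgeR), with -0.87 without Chow4 (unadjusted p = 0.0264, edgeR), -0.45 without HFr4 (unadjusted p = 0.188) and -0.45 without Chow2 (unadjusted p = 0.254). DUSP1 had at least 199 estimated counts in each animal, more than any animal had of JUN.

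DUSP10 (chromosome 25, 7792913 to 7834347, plus strand), a phosphatase of the p38 and JNK kinases, was at 7.16, 3.59, 8.07, 2.67 and 5.74 normalized counts in HFr1 to HFr5. In Chow1 to Chow5 it was at 10.5, 10.9, 12.8, 9.60 and 15.2. Each HFr animal was below each chow animal. Such a lack of overlap with HFr lower was seen for 0.327% of all tested transcripts, for 0.214% with HFr higher and for 0.541% in either direction. The mean was 5.44 ± 2.30 (SD, n = 5) on HFr and 11.8 ± 2.21 (SD, n = 5) on chow, from 12 to 29 and 19 to 70 estimated counts per animal. The log2 fold change was -1.16 ± 0.29 (SE), with an unadjusted p of 0.00131 and an adjusted p of 0.994 (edgeR). The two-sided exact permutation test gave p = 0.00794, the smallest that 5 against 5 animals allow. Any lack of overlap between the diets gives this value, so it adds nothing to the lack of overlap.

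DUSP10 also differed from the other members in its spread. Its SD within a diet was 0.43, with 34.9% of tested transcripts above it, and its biological coefficient of variation of 26.2% was near the trend of 29.5%. Chow2 and Chow3, the high animals for JUN and EGR1, were at 10.9 and 12.8 normalized counts of DUSP10, below Chow5 and above Chow1 and Chow4. Leaving out each animal in turn kept its log2 fold change between -1.34 and -0.98.

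ZFP36 (chromosome 6, 34011031 to 34013871, plus strand) encodes tristetraprolin, which binds AU-rich elements in the transcripts of cytokines and early response genes and speeds their decay. It was at 60.7, 39.5, 99.2, 22 and 132 normalized counts in HFr1 to HFr5. In Chow1 to Chow5 it was at 44.1, 119, 328, 35.4 and 49.2. Chow3 alone held the high value, and 3 of the 5 HFr animals were above the chow median. The mean was 70.7 ± 44.8 (SD, n = 5) on HFr and 115 ± 124 (SD, n = 5) on chow, with a log2 fold change of -0.72 ± 0.60 (SE, unadjusted p = 0.249, edgeR). Without Chow3 the log2 fold change was 0.18.

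**Figure D2:**
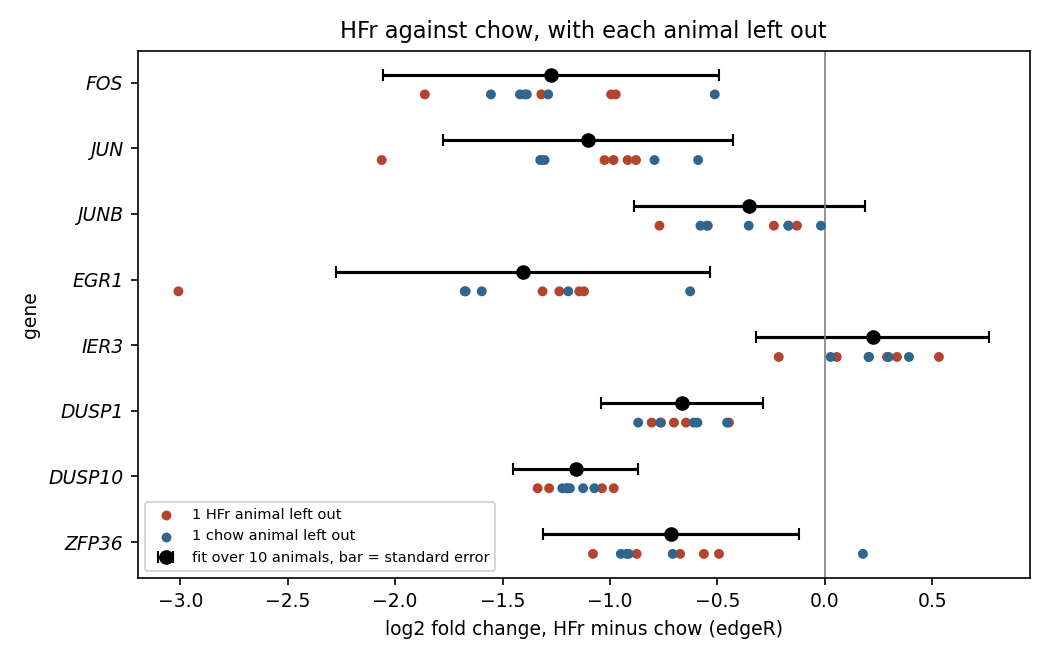
Log2 fold change of each tested member, HFr minus chow, from edgeR. Black points are fits over all 10 animals with the standard error as bar, and colored points are fits with 1 HFr (red) or 1 chow animal (blue) left out. EGR1 moved from -1.41 to -3.01 without HFr5, IER3 and ZFP36 crossed 0, and DUSP10 stayed between -1.34 and -0.98.

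Two-sided exact permutation tests of the difference in mean log2(CPM + 1) gave the same calls as edgeR, with p from 0.198 (FOS) to 0.889 (JUNB) for the members other than DUSP10. The median log2 fold change over the 8 tested members was -0.91, beside -0.00075 over all tested transcripts. It too describes members that were chosen with earlier results of these data known.

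**Figure D3:**
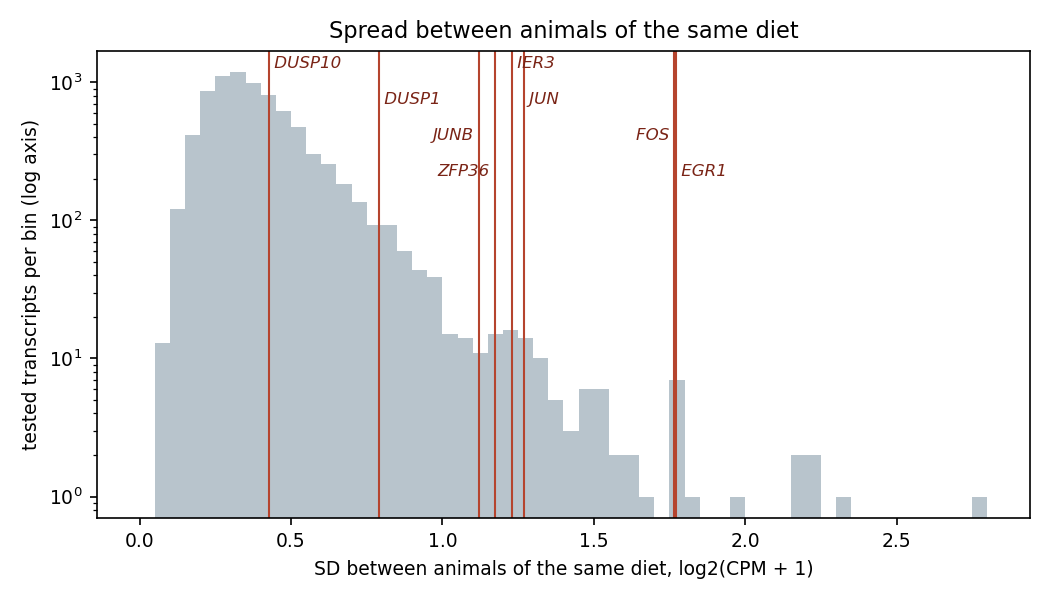
Spread of all 7948 tested transcripts between animals of the same diet, as the SD of log2(CPM + 1) (horizontal axis) against the number of transcripts per bin (log axis). Red lines mark the 8 tested members. DUSP10 lies at 0.43, close to the bulk of the transcripts, and FOS and EGR1 lie at 1.77.

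The same animals were high or low for most members, and they came from both diets. Ranked over the 10 animals, Chow2 and Chow3 were each among the top 3 for 7 of the 8 tested members, HFr5 for 4 and HFr3 for 3. HFr4 was among the bottom 3 for 7 members, Chow4 for 6 and HFr2 for 5. Chow2 was the highest animal for FOS, EGR1 and DUSP1, and Chow3 for JUN, JUNB and ZFP36. HFr4 was the lowest for IER3, DUSP1, DUSP10 and ZFP36. The library numbers in the labels ran from 1 to 4 for HFr1 to HFr4, 5 to 7 for Chow1 to Chow3, 8 for HFr5 and 9 and 10 for Chow4 and Chow5. Chow2, Chow3 and HFr5 thus held the consecutive numbers 6, 7 and 8. What the number stands for is not given, and its part in the result was not tested.

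**Figure D4:**
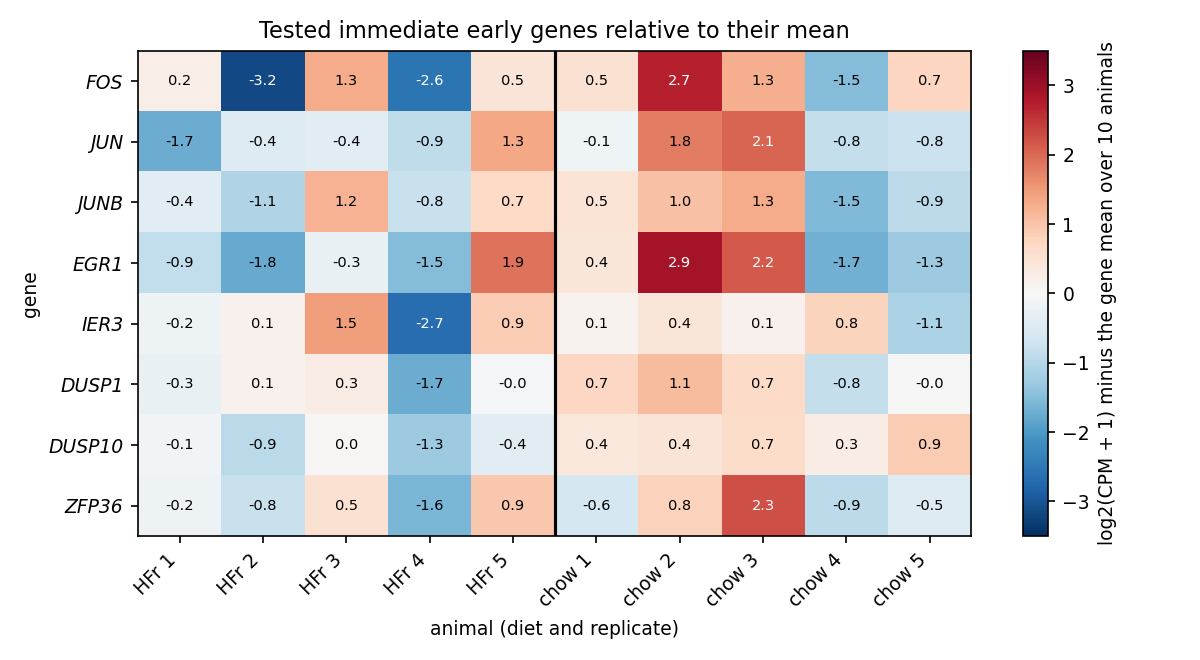
Log2(CPM + 1) of the 8 tested members in each animal minus the mean of that gene over the 10 animals. Red is above and blue below the mean, and the line separates the diets. The columns of Chow2 and Chow3 are red in all 8 rows, and that of HFr4 is blue in all 8.

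Pairs of members moved together over the animals. Over the 28 pairs of tested members, the median Pearson r over the 10 animals was 0.63, the lowest 0.30 and the highest 0.90, between JUN and EGR1. The r was above 0.5 for 67.9% of these pairs and for 9.11% of all pairs of tested transcripts. These pairs share the same 10 libraries, so the values are a description.

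FOS, the first gene of the list, was set against each of the other 7 tested members (log2(CPM + 1), n = 10 animals, 100000 permutations, 7 relations). The r with JUNB was 0.77 (permutation p = 0.00886, adjusted p = 0.0301), with a Spearman rho of 0.77 (permutation p = 0.0129). The r with EGR1 was also 0.77 (permutation p = 0.0107, adjusted p = 0.0301), with a rho of 0.81 (permutation p = 0.00741). With HFr2 and HFr4, the animals farthest from the FOS median, left out, r was 0.77 for JUNB and 0.72 for EGR1, although no relation passed the threshold once HFr4 alone was left out.

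FOS was related to the negative regulators as well. With DUSP1 the r was 0.71 (permutation p = 0.0202, adjusted p = 0.0301) and the rho 0.72 (permutation p = 0.0243), with an r of 0.88 without HFr2 and HFr4. With ZFP36 the r was 0.71 (permutation p = 0.0215, adjusted p = 0.0301) and the rho 0.72 (permutation p = 0.0240), with an r of 0.59 without those animals. With DUSP10 the r was 0.75 (permutation p = 0.0145, adjusted p = 0.0301) and the rho 0.72 (permutation p = 0.0236), but r was 0.23 without HFr2 and HFr4, so that relation rests on those 2 animals. For JUN the r of 0.54 (permutation p = 0.109, adjusted p = 0.128) and the rho of 0.65 (permutation p = 0.0502) did not pass, and r was 0.59 without HFr2 and HFr4. For IER3 the r of 0.415 (permutation p = 0.230, adjusted p = 0.230) and the rho of 0.38 (permutation p = 0.278) did not pass either, and r was -0.0249 without them.

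The 5 relations that passed were not equally firm. The number past the threshold was 0 when HFr4 or Chow2 was left out and 3 without Chow4. After the mean of each diet was subtracted, the r with FOS was 0.46 for JUN, 0.82 for JUNB, 0.74 for EGR1, 0.43 for IER3, 0.65 for DUSP1, 0.76 for DUSP10 and 0.71 for ZFP36, and 4 relations passed.

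**Figure D5:**
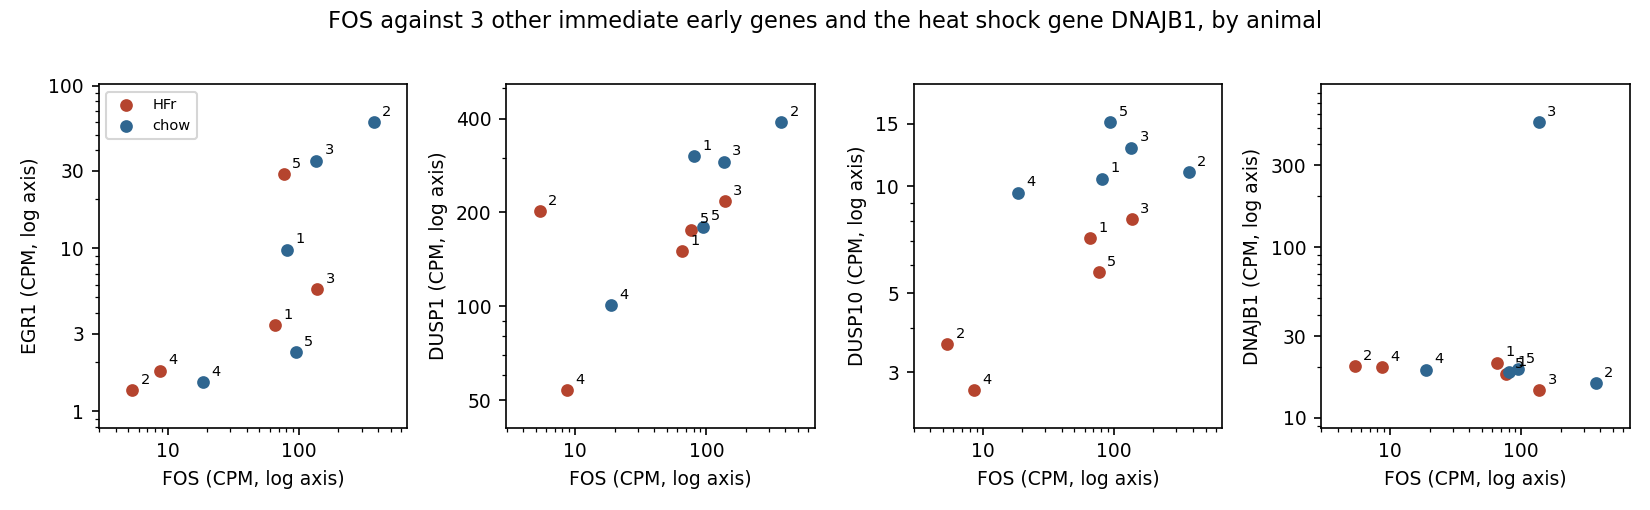
Normalized counts (CPM, log axes) of EGR1, DUSP1, DUSP10 and the heat shock gene DNAJB1 against FOS. Points are animals numbered within their diet, red for HFr and blue for chow. EGR1 and DUSP1 are highest in Chow2, the animal with the most FOS, DUSP10 lies lower in the HFr animals, and DNAJB1 is high in Chow3 alone.

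The share of mitochondrial transcripts varied between animals and was set against each tested member. It was lowest in Chow2 (34.7%), HFr2 (41.8%), Chow3 (43.0%) and HFr5 (44.0%), 3 of which were the animals high for JUN and EGR1. The r with the mitochondrial percent was -0.76 for JUN (permutation p = 0.0139, adjusted p = 0.111 over 8 relations) and -0.70 for EGR1 (permutation p = 0.0285, adjusted p = 0.114), and no member passed. For FOS it was -0.23. With Chow2 and HFr2, the animals farthest from the median mitochondrial percent, left out, r was -0.92 for EGR1 and -0.83 for JUN. It was then -0.71 for ZFP36, -0.68 for JUNB, -0.42 for DUSP1, -0.37 for FOS, -0.11 for IER3 and 0.05 for DUSP10. After the mean of each diet was subtracted, r over the 10 animals was -0.81 for JUN, -0.74 for EGR1, -0.25 for FOS and 0.18 for DUSP10. The mean share was 55.5% ± 11.8 (SD, n = 5) on HFr and 55.4% ± 16.5 (SD, n = 5) on chow (two-sided exact permutation p = 0.992).

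Markers of other cell types were summed in each animal, and their part in the members' spread was not tested. Over the 10 animals, the r of the summed level with the mean profile of the 8 tested members was 0.69 for neutrophils, -0.62 for endothelial cells and between -0.38 and 0.42 for the other 7 lists, a description over shared libraries. The 8 neutrophil markers, 7 of them in the table, summed to 5.55 to 25.8 normalized counts on HFr and 6.57 to 59.6 on chow, with the highest sum in Chow3 and S100A12 at 0 in all animals. The lowest neutrophil sums were those of HFr4 (5.55), HFr2 (5.61) and Chow4 (6.57), which were also low for most members. Other animals did not follow this order. Chow2, with the highest mean profile of the members (1.40), had a neutrophil sum of 9.64. HFr1, with a mean profile of -0.44, had a sum of 19.97. Of the neutrophil markers, CSF3R alone passed the filter on low counts. The 10 Kupffer cell and macrophage markers (9 in the table) summed to 114 to 274 on HFr and 72.9 to 281 on chow. The 7 endothelial markers summed to 219 to 239 on HFr and 158 to 236 on chow, with Chow2 and Chow3 lowest, at 159 and 158. The 8 stellate cell and fibroblast markers summed to 210.3 to 378 on HFr and 167 to 736 on chow, with LRAT at 0. The 9 lymphocyte markers summed to 27.1 to 52.9 and 23.1 to 40.0, the 5 cholangiocyte markers (4 in the table) to 6.0 to 26.7 and 10.1 to 31.8, and the 4 red blood cell markers (2 in the table) to 101 to 334 and 61.1 to 345. The skeletal muscle markers MYH2, CKM and MYL1 were at 0, and their list of 5 summed to 2.74 at most. Between the diets, the only tested markers with an unadjusted p under 0.05 (edgeR) were KDR and ACTA2, beside 4.29% of all tested transcripts. KDR, 1 of 7 tested endothelial markers, had a log2 fold change of 0.57 (unadjusted p = 0.0109, edgeR). ACTA2, 1 of 5 tested stellate cell and fibroblast markers, had one of -1.57 (unadjusted p = 0.00646, edgeR). No marker passed after adjustment. The cholangiocyte marker KRT19 did not pass the filter and was at -1.58 in the unfiltered fit (unadjusted p = 0.0198, edgeR). The 10 hepatocyte markers summed to 52440 to 77660 on HFr and 42864 to 84849 on chow.

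Close relatives of the members passed the filter on low counts less often than the members did. All 14 looked up had a row, and 6 passed the filter, each with a negative log2 fold change. The tests gave 2 of them an unadjusted p under 0.05 with HFr lower, a direction seen for 2.23% of all tested transcripts, and no relative an adjusted one. JUND, the JUN family member usually expressed at rest, was at 3.02 ± 1.17 (SD, n = 5) normalized counts on HFr and 6.30 ± 5.32 on chow (log2 fold change -1.11 ± 0.50 SE, unadjusted p = 0.0438, edgeR). Its highest animals were Chow3 (13.9) and Chow2 (9.42), and without Chow3 the log2 fold change was -0.60. ZFP36L1, an AU-rich element binding relative of ZFP36, was at 159 ± 36.3 on HFr and 254 ± 127 on chow (log2 fold change -0.68 ± 0.30 SE, unadjusted p = 0.0375, edgeR). For ZFP36L1 the highest animals were Chow5 (452) and Chow1 (306), not those of ZFP36, and without Chow5 its log2 fold change was -0.38. The phosphatases DUSP5, DUSP6 and DUSP8 had log2 fold changes of -0.43, -0.29 and -0.19, and ZFP36L2 one of -0.31. FOSL1, FOSL2, EGR2, EGR3, IER5, DUSP2, DUSP4 and DUSP16 did not pass the filter.

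Of 49 other early response genes, 43 had a row and 33 were tested. Of these, 26 were lower and 7 higher on HFr, 5 of the 26 and none of the 7 with an unadjusted p under 0.05 (edgeR), beside 2.23% lower and 2.06% higher of all tested transcripts, and none with an adjusted p under 0.05. The count of 5 was 2 without HFr2, HFr4 or Chow3 and 8 without Chow4. Their median log2 fold change was -0.33 and the median SD within a diet 0.50. KLF4, a Kruppel-like factor, was at 6.94 ± 1.72 (SD, n = 5) on HFr and 12.7 ± 6.04 on chow (log2 fold change -0.90 ± 0.31 SE, unadjusted p = 0.0122, edgeR). KLF10, a TGF-beta induced factor, had a log2 fold change of -1.18 ± 0.49 (SE, unadjusted p = 0.0287, edgeR), the proto-oncogene MYC one of -1.04 ± 0.43 (unadjusted p = 0.0295) and the circadian repressor BHLHE40 one of -1.12 ± 0.47 (unadjusted p = 0.0326). The fifth, chosen after its values were seen, was the chemokine CCL2, at -0.75 (unadjusted p = 0.0433, edgeR).

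Chow3 was the highest animal for 42.4% of the 33 tested early response genes and for 10.8% of all tested transcripts. Without Chow3 the log2 fold change was -0.55 for KLF10, -0.52 for BHLHE40, -0.83 for MYC and -0.68 for CCL2, none with an unadjusted p under 0.05 (edgeR), and -1.01 for KLF4 (unadjusted p = 0.00761). Of the members, FOS and DUSP10 were at -1.29 and -1.12 without Chow3, and JUN, JUNB and ZFP36 at -0.59, -0.02 and 0.18. The early response genes with the widest spread were NFIL3 (SD within a diet 0.96), BHLHE40 (0.92), KLF10 (0.91), MYC (0.85) and the orphan receptor NR4A1 (0.79). All lay below FOS, JUN, JUNB, EGR1, IER3 and ZFP36, whose SD was 1.12 or more. The members DUSP1 (0.79) and DUSP10 (0.43) lay below NFIL3, BHLHE40, KLF10 and MYC. NR4A1 had a log2 fold change of -0.91 ± 0.43 (SE, unadjusted p = 0.0505, edgeR).

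The member profile, the mean over the 8 tested members of log2(CPM + 1) centered on each gene, served to look for genes of like pattern over the 10 animals. Its r was above 0.5 for 51.5% of the tested early response genes and for 8.98% of all tested non-members. The highest among the early response genes were GADD45B, a stress response gene (0.81), BHLHE40 (0.80), NFKBIZ (0.80) and PIM1 (0.74). Over all tested transcripts with a symbol, those most like the profile included TTC17 (0.90), RSRC1 (0.89), ERBIN, CLINT1, PHLPP2, ARNTL and UBE2G1 (each 0.85). The lowest r were those of TBC1D31 (-0.93), NDUFB1 (-0.91), POLG (-0.90) and IL11RA (-0.89). Pearson r takes no account of the size of the differences, since TTC17 ranged over 1.37-fold between animals and FOS over 69.0-fold. These genes were picked as the extremes over all tested transcripts with a symbol, so their r is a description.

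By their median spread, the tested genes that carry the signal to the members varied less between animals than the members. Genes of this list that did not pass the filter on low counts are not in that median. Of 32 upstream kinases and transcription factors, 28 had a row and 17 were tested, 7 higher and 10 lower on HFr and none with an unadjusted p under 0.05 (edgeR). Their median log2 fold change was -0.01 and their median SD within a diet 0.31. SRF, the factor that binds the serum response element, had a log2 fold change of -0.01 and an r of 0.69 with the member profile, the highest of this list. Over the 17 tested genes of the list the median r was 0.07, and the lowest was -0.62 (CRTC2). Transcript levels do not show whether the encoded proteins were phosphorylated.

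Since DUSP1 is also a glucocorticoid target, 16 glucocorticoid-responsive genes were looked up, of which 14 had a row and 13 were tested, DUSP1 among them. Of these, 7 were higher and 6 lower on HFr, with a median log2 fold change of 0.15 and none with an unadjusted p under 0.05 (edgeR). The r with the member profile was at most 0.37 (TSC22D3) over the 12 genes other than DUSP1, and its median was -0.02.

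Heat shock genes set Chow3 apart in another way. Of 15 looked up, 10 had a row and 9 were tested, 2 higher and 7 lower on HFr, 1 and 3 of them with an unadjusted p under 0.05 (edgeR), beside 2.06% and 2.23% of all tested transcripts. The 3 lower ones lost that call without Chow3. Chow3 was the highest animal for 77.8% of the 9. DNAJB1, a co-chaperone of HSP70, was at 539 normalized counts in Chow3 and between 14.5 and 21.1 in the other 9 animals, and its log2 fold change of -2.72 ± 0.93 (SE, unadjusted p = 0.0108, edgeR) was 0.05 without Chow3. BAG3 was at 45.8 in Chow3 (log2 fold change -1.22, and -0.21 without it), and HSPH1 at 51.5 (-1.51, and -0.03 without it). Chow2, which shared the high values of JUN and EGR1 with Chow3, had 16.0 normalized counts of DNAJB1, the lowest of the chow animals. HSPA5, the chaperone of the endoplasmic reticulum, was at 158 ± 57.4 (SD, n = 5) on HFr and 105 ± 18.5 on chow (log2 fold change 0.59 ± 0.25 SE, unadjusted p = 0.0348, edgeR). HFr4, at 79.1, was the lowest animal of both diets. With 1 animal left out, HSPA5 kept that call only without HFr2, HFr4 or Chow3. Its log2 fold change was 0.42 without HFr5 (unadjusted p = 0.112, edgeR) and 0.75 without HFr4.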

How the data were processed

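Polyadenylated RNA of 1 liver biopsy from each of 10 female vervet monkeys was sequenced. Reads were demultiplexed with CASAVA 1.8, checked with FastQC and aligned with STAR 2.5.3a, per the submitters' processing notes. The estimated (expected) counts were made by the authors, who used an expectation-maximization algorithm in Partek Flow to assign reads aligned to ChlSab1.1 among the Ensembl transcripts. They were deposited without normalization, and 97.8% of them were whole numbers (tolerance 1e-9). The deposited signal values are TMM-normalized counts made by the authors, and in each animal they were a constant multiple of the estimated counts (range of the ratio at most 0.00143%). The strand setting of the counting is not given in the sources used here. Neither file held columns of the authors' own comparisons.

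Counts were rounded to whole numbers, and edgeR's filterByExpr kept transcripts at its defaults (10 counts in enough animals, 15 in all). HFr and chow were compared with edgeR 4.0.16 in R 4.3.3 (quasi-likelihood test, TMM, diet as the only term) over 7948 transcripts, with Benjamini-Hochberg adjustment over all of them and a threshold of 0.05. The factors of TMM, the trimmed mean of M values, lay between 0.607 and 1.49. The standard error is the log2 fold change divided by the square root of F. Single values were compared by exact permutation of the diets over the animals, on log2(CPM + 1) with a pseudocount of 1, as were correlations by 100000 permutations. A replicate is a separate animal.

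Members and gene lists were chosen with earlier results of these data known. A gene was represented by its transcript with the highest mean count. Members and their close relatives were all named. From the other lists, genes with an unadjusted p under 0.05 or no overlap between the diets were named, at most 4 per list and direction, with the 5 early response genes of widest spread and the 8 transcripts most and 4 least like the member profile. The values of 2 further genes are not reported here, although they are counted in the totals. DESeq2 1.42.0, limma 3.58.1, other scalings, filters and pseudocounts, the study's equal-variance test, a replicate block and leaving out each animal were alternatives. Coordinates are those of the deposited tables (ChlSab1.1, counted from 1, listed stop excluded). No sequences were used here.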

Additional observations from a re-analysis of the deposited data

Results flagged for a closer look

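Within each diet, 78 groups of 5 animals were checked for a highest or lowest animal that stood apart by Dixon's test, and 9 such values were found. Chance gives about 1 in 20 groups of normally distributed values chosen without regard to them. Some of these genes were named for their p, spread or pattern, and normalized counts are skewed, so that rate is no baseline for the 9. Among the members, HFr5 stood above the other HFr animals for JUN, at 17.2 normalized counts against 1.13 to 4.44, and for EGR1, at 28.7 against 1.35 to 5.65. Chow3 stood above the other chow animals for ZFP36, at 328 against 35.4 to 119. For NFIL3, a bZIP repressor, Chow3 was at 95.4 against 11.6 to 22.1 in the other chow animals, and HFr4 was low at 9.77 against 29.1 to 36.6 in the other HFr animals. The heat shock genes DNAJB1, BAG3 and HSPH1 were at 539, 45.8 and 51.5 in Chow3, against at most 19.3, 9.65 and 10.7 in the other chow animals. UBE2G1, one of the genes of like pattern, was at 17.3 in HFr4 against 21.5 to 23.1 in the other HFr animals. The causes were not tested.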

How the results depend on the processing

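No member had an adjusted p under 0.05 in any of 23 alternatives, and the count was 0 in each fit that left out an animal (0 to 0). DUSP10 had an unadjusted p under 0.05 in all 23, with a log2 fold change of -1.34 to -0.98 and an adjusted p of 0.180 (DESeq2) to 1. The median SD within a diet of the members was 1.12 to 1.38 (1.12 to 1.27 with an animal left out). Scaled by library size alone it was 1.38, beside 0.560 over all tested transcripts, against 1.20 and 0.363 with TMM. Scaling by library size alone gave 123 transcripts (1 after adjustment) and 3 members (DUSP10, EGR1, FOS) an unadjusted p under 0.05. With any count above 0 kept, 756 of 16066 transcripts and 10 early response genes had one. Requiring at least 10 counts in every animal left EGR1, IER3, JUN and JUNB untested. The study's equal-variance test gave 0 early response genes, with 65.2% of all calls higher on HFr against 48.1% in edgeR, and robust estimation gave 3. Leaving out each animal gave 260 to 408 transcripts, 1 to 3 members (3 without HFr5), 2 to 8 early response genes, 0 to 5 relations with FOS and a difference in mitochondrial percent of -5.10 to 4.61. IER3 changed sign with limma at a pseudocount of 1 (-0.15) or 0.1 (-0.23), with the replicate block (-0.0059) and without HFr3 (-0.21 to 0.53 over the animals left out), and ZFP36 without Chow3 (-1.08 to 0.18). The causes were not tested.

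Replicate numbers did not pair the animals, with correlations of -0.29 to 0.10 between same-numbered animals, and 0 HFr animals correlated best with their own number. With a replicate block, 271 transcripts and 2 members (DUSP1, DUSP10) had an unadjusted p under 0.05. With the mitochondrial percent as a covariate, chosen after seeing the data, 406 transcripts and DUSP10 alone among the members had one. In that fit the log2 fold change was -0.82 for FOS, -0.79 for JUN and EGR1, -0.11 for JUNB and -0.36 for ZFP36. The lowest animals had 2, 3 and 3 estimated counts of IER2, JUN and EGR1, so values there rest on few counts.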
